A study of Homo sapiens with 9 samples.

Results

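RELN encodes reelin, a large secreted glycoprotein, and the 6 genes described here are the ligand, the receptors VLDLR and LRP8, the adaptors DAB1 and DAB2, and PAFAH1B1, which encodes LIS1. They are 6 of 56823 genes summed from the transcript tables, and 4 of the 6 passed the filter on low counts that left 19658 genes for testing. The set was picked because RELN had the largest increase with both guides, so the change of RELN against the control is given as a description and supports nothing else. The other members were taken for their place in the pathway, by current symbol.

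The cells were H1975, an established line of human non-small cell lung cancer with mutant EGFR, and all 3 groups carried dCas9-KRAB, a catalytically dead Cas9 fused to a transcriptional repressor, under a doxycycline-inducible (TRE) promoter. In the groups gRNA1 and gRNA2 the guide RNA was directed at TRIDENT, a long noncoding RNA, and in the control group it was a non-targeting (NT) guide. All groups received 4 ug/ml doxycycline for 72 h and grew with G418 and puromycin, and each had 3 libraries of total RNA depleted of ribosomal RNA. Nothing in the labels says that the replicates are separate cultures or clones, so a p-value measures only the spread between these libraries, which may be technical.

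Reelin is best known from the developing brain, where it is secreted by early-born neurons and guides the layering of migrating neurons. It binds VLDLR and LRP8 (also called APOER2), members of the LDL receptor family, and this leads Src-family kinases to phosphorylate DAB1, which recruits CRK proteins, PI3 kinase and LIS1. DAB2 is a relative of DAB1 that works as a clathrin adaptor for LDL receptors. Outside the brain RELN is expressed in liver and lymphatic endothelium, among other places, and methylation of its promoter has been reported in several carcinomas.

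The promoter of RELN is shown because the reads of the gene fell almost wholly on a transcript that starts there. Its 250 bases upstream of the RefSeq start (GRCh38.p14, chr7:103989659-103989908, minus strand) are given with SP1 boxes (GGGCGG) and the E-box (CACGTG) in capitals, searched on both strands, with overlapping SP1 boxes counted singly and joined in the run of capitals.
RELN promoter: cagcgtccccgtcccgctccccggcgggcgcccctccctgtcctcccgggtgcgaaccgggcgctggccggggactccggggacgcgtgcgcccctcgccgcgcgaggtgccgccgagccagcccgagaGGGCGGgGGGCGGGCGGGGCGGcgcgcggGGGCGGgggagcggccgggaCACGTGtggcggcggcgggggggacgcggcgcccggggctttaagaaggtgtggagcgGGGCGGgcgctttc
This window was 83.2% G and C and held 43 CpG dinucleotides, more than 99.0% of the 35116 RefSeq promoter windows of the same length, whose median was 11. It held 6 SP1 boxes and 1 E-box, and 0 cyclic AMP response elements (TGACGTCA). Of all windows, 42.6% held the SP1 box, 6.34% the E-box and 1.65% the cyclic AMP response element. The window ends 142 bases before the start of the gene in GENCODE 29, the annotation used for the counts.

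RELN (ENSG00000189056.13, chr7:103471784-103989516 of hg38, minus strand) was high in both guide groups and low in the control. It had 11.3, 13.1 and 12.5 CPM (counts per 1000000 reads, scaled by TMM) in the gRNA1 libraries. In the gRNA2 libraries it had 8.62, 9.20 and 9.55 CPM, against 2.46, 2.00 and 2.99 CPM in the control libraries. All 6 guide libraries lay above all 3 controls, and the gRNA2 libraries lay below the gRNA1 libraries, with no overlap between any of the 3 groups. The values rest on 230, 307 and 254 reads with gRNA1, 209, 241 and 159 reads with gRNA2, and 46, 49 and 65 reads in the control.

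The fitted level of RELN was 4.99-fold that of the control with gRNA1 (95% interval 4.14 to 6.01) and 3.68-fold with gRNA2 (3.04 to 4.46). The gene was selected on these values. Among 274 genes that averaged a log2 CPM of 1 or more, passed the threshold as higher with both guides and had groups that did not overlap, RELN ranked 1 by the smaller of its increases. The genes next to it in that order were HAGLR, a noncoding RNA from the HOXD locus, at 2.43-fold, and ENTREP1 at 2.38-fold. By its mean CPM, RELN lay above 51.9% of the tested genes in the gRNA1 libraries and 47.3% in the gRNA2 libraries, against 31.3% in the control libraries. In bulk RNA a change in the number of cells that express a gene cannot be told apart from a change in RNA per cell.

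**Figure D1:**
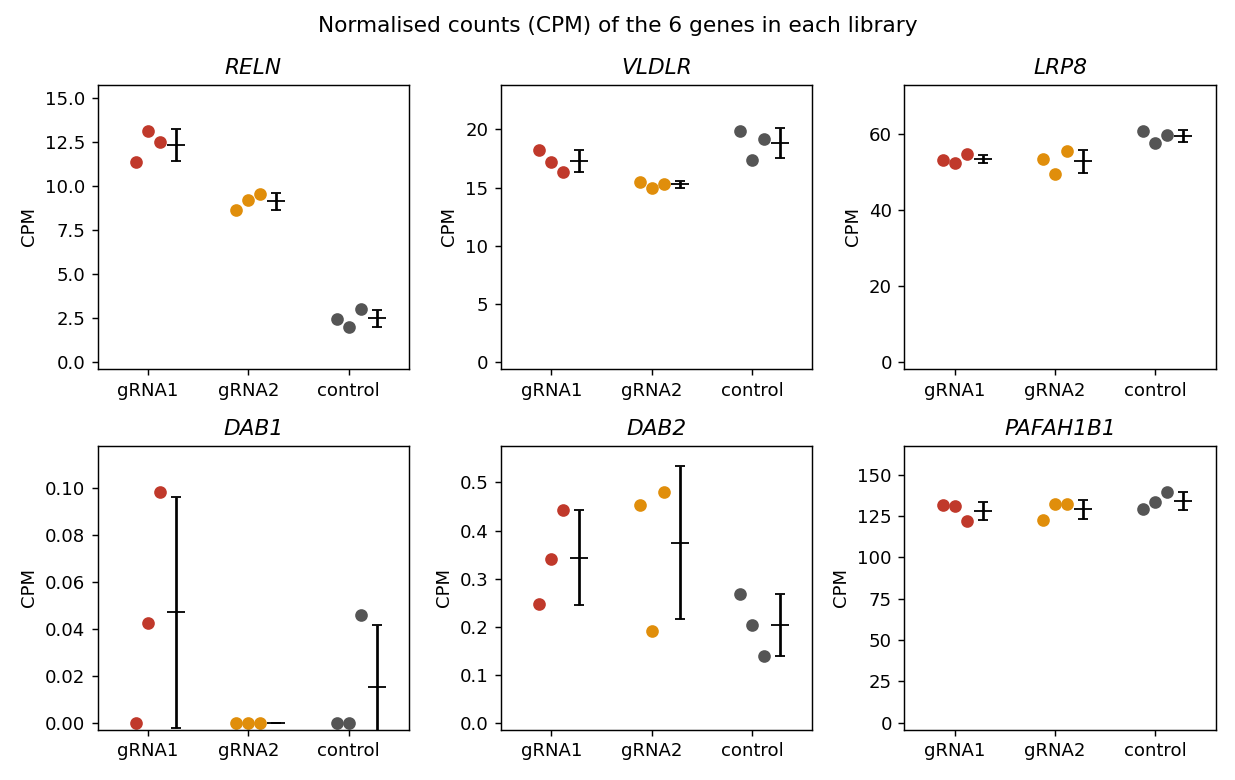
Normalised read counts (CPM, vertical axis starting at or just below 0) of the 6 genes in each of the 9 libraries, with the mean and SD of each group beside its points. RELN separates the 3 groups, while VLDLR, LRP8 and PAFAH1B1 differ by small amounts and DAB1 and DAB2 stay under 0.5 CPM.

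The comparison of the guides with each other was not used to choose RELN and could be tested. RELN was lower with gRNA2, at 9.12 ± 0.469 CPM, than with gRNA1, at 12.3 ± 0.902 CPM (SD, n = 3 each), a fold of 0.738 (95% interval 0.634 to 0.859; edgeR, adjusted p = 0.0203). All 3 gRNA2 libraries lay below all 3 gRNA1 libraries. RELN was the only one of the 4 tested members called in this comparison, in which 3.1% of all tested genes were called lower. The call ended without gRNA2 replicate 1 or 2 or gRNA1 replicate 2 or 3 (adjusted p = 0.0671, 0.0791, 0.0977 and 0.0584), where the fold stayed between 0.732 and 0.761, with protein-coding transcripts alone (adjusted p = 0.0708) and with an offset for transcript length (adjusted p = 0.587).

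Of the 7 RELN transcripts listed, RELN-201, the full-length coding transcript of 11565 bases, held 94.8% of the gene's reads with gRNA1, 98.3% with gRNA2 and 97.3% in the control. Its level was 0.788, 0.937 and 0.736 TPM (a relative abundance that corrects for length) in the gRNA1 libraries, 0.589, 0.650 and 0.703 TPM in the gRNA2 libraries, and 0.168, 0.136 and 0.196 TPM in the control libraries. On this scale, too, the 3 groups did not overlap. None of the 31-mers of RELN-201 occurred in a transcript of another gene.

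The remaining RELN transcripts held few reads. RELN-203, a coding transcript of 11571 bases, was assigned 30.0 reads (0.0989 TPM) in gRNA1 replicate 3 and 0 in each of the other 8 libraries. It differs from RELN-201 by exon 64 of 65, a microexon of 6 bases (chr7:103478389-103478394, minus strand), shown in capitals with 24 bases on either side because the split between these transcripts rests on it.
RELN-203: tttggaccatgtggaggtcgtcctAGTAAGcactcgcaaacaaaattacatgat
RELN-201: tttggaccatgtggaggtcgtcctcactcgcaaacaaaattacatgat
Only 0.312% of the 31-mers of RELN-203 span this exon, so the estimate in a single library has little to rest on. RELN-205, a noncoding transcript of 641 bases, reached 0.770 TPM in gRNA1 replicate 1 on 5.47 estimated reads. Because so few reads on a short transcript weigh heavily in TPM, the gene is described here by its reads and by RELN-201, not by the sum of its TPM. SLC26A5-AS1, an antisense gene that overlaps the 3′ end of RELN, had 0 reads in all 9 libraries.

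VLDLR (ENSG00000147852.15, chr9:2621834-2660053, plus strand), the very low density lipoprotein receptor, was lower with gRNA2 and did not pass the test with gRNA1. It had 15.5, 15.0 and 15.3 CPM in the gRNA2 libraries. In the gRNA1 libraries it had 18.2, 17.2 and 16.3 CPM, against 19.8, 17.4 and 19.2 CPM in the control libraries. The gRNA2 libraries lay below every control, whereas the gRNA1 libraries overlapped the controls.

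The fold of VLDLR was 0.813 with gRNA2 (95% interval 0.732 to 0.903; edgeR, adjusted p = 0.0184) and 0.920 with gRNA1 (0.830 to 1.02; adjusted p = 0.340). Between the guides it was 0.884 (gRNA2 over gRNA1, 0.795 to 0.982; adjusted p = 0.177), so a difference between the guides was not shown. The gRNA2 call ended without gRNA2 replicate 2, control replicate 1 or control replicate 3 (adjusted p = 0.0847, 0.0737 and 0.0807), with protein-coding transcripts alone (0.0600) and with the length offset (0.0740). Of the 31-mers of the main transcript VLDLR-202, 22.1% also occur in VLDLR-AS1, which overlaps VLDLR on the other strand, or in AC107222.1. The strand setting is not given in the sources used here, so reads in the sequence that VLDLR and VLDLR-AS1 share cannot be told apart. VLDLR-AS1 had 2.42 ± 0.307 CPM with gRNA2, 2.15 ± 0.0774 with gRNA1 and 2.20 ± 0.0868 in the control.

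LRP8 (ENSG00000157193.16, chr1:53242364-53328070, minus strand), the other canonical reelin receptor, was lower with gRNA2 by a small margin. It had 53.5, 49.6 and 55.7 CPM in the gRNA2 libraries. The gRNA1 libraries had 53.3, 52.5 and 54.8 CPM, against 60.9, 57.8 and 59.9 CPM in the control libraries. All 6 guide libraries lay below all 3 controls, and the guide groups overlapped each other.

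The fold of LRP8 was 0.888 with gRNA2 (95% interval 0.826 to 0.954; edgeR, adjusted p = 0.0426) and 0.90 with gRNA1 (0.838 to 0.967; adjusted p = 0.0757). The difference between the guides was not shown (gRNA2 over gRNA1, 0.987-fold, 0.918 to 1.06; adjusted p = 0.885). The gRNA2 call is close to the threshold. It ended without gRNA2 replicate 1 or 2, gRNA1 replicate 1 or 2, or any 1 of the 3 controls (adjusted p = 0.0584, 0.221, 0.0676, 0.0638, 0.138, 0.0791 and 0.139), in a fit of only gRNA2 and the control (0.0687), with protein-coding transcripts alone (0.15) and with the length offset (0.129).

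PAFAH1B1 (ENSG00000007168.12, chr17:2593210-2685615, plus strand) encodes LIS1, a regulator of cytoplasmic dynein that binds phosphorylated DAB1. It had 131.8, 131.1 and 122.2 CPM in the gRNA1 libraries and 122.4, 132.4 and 132.6 CPM in the gRNA2 libraries, against 129.5, 133.4 and 139.7 CPM in the control libraries. The 3 groups overlapped. Its fold was 0.956 with gRNA1 (95% interval 0.893 to 1.02; adjusted p = 0.453) and 0.962 with gRNA2 (0.898 to 1.03; adjusted p = 0.505). Transcripts annotated as noncoding held 42.8%, 44.0% and 43.3% of its reads in the gRNA1, gRNA2 and control libraries, and 14.3% of the 31-mers of its main coding transcript also occur in other genes, among them the pseudogenes PAFAH1B1P1 and PAFAH1B1P2.

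DAB1 (ENSG00000173406.15, chr1:56994778-58546734, minus strand), the adaptor that passes the reelin signal on, was barely detected. It had 0, 1 and 2 reads in the gRNA1 libraries, 0 in each gRNA2 library, and 0, 0 and 1 in the control libraries. The 0 reads of the gRNA2 group allow a level of up to 0.0449 CPM (3 reads over the 3 libraries, counting error only). All of these reads were assigned to ENST00000485760.5, 1 of 11 transcripts and annotated as noncoding, so no coding DAB1 transcript had a read in any library. Of the 31-mers of this noncoding transcript, 7.51% also occur in another gene, OMA1.

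DAB2 (ENSG00000153071.14, chr5:39371675-39462300, minus strand) had 5, 8 and 9 reads in the gRNA1 libraries and 11, 5 and 8 reads in the gRNA2 libraries, against 5, 5 and 3 reads in the control libraries. These are 0.344 ± 0.0984 CPM with gRNA1, 0.375 ± 0.160 CPM with gRNA2 and 0.203 ± 0.0648 CPM in the control (SD, n = 3 each), and the groups overlapped. Apart from 2 reads on the longer coding transcript of 4534 bases in gRNA2 replicate 2, all lay on ENST00000515700.5, a short coding transcript of 651 bases. Of its 31-mers, 20.0% occur in no other DAB2 transcript and 9.5% occur in transcripts of 22 other genes. Neither DAB1 nor DAB2 passed the filter, so neither was tested, and a difference in them was not detectable at this depth.

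Among the 3 tested members other than RELN, 0 were called with gRNA1, where 3.49% of all tested genes were called higher and 3.58% lower. With gRNA2, VLDLR and LRP8 were called lower and 0 were called higher, where 4.75% of all tested genes were lower and 3.69% higher. The comparisons of gRNA1 and gRNA2 with the control share the control libraries.

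**Figure D2:**
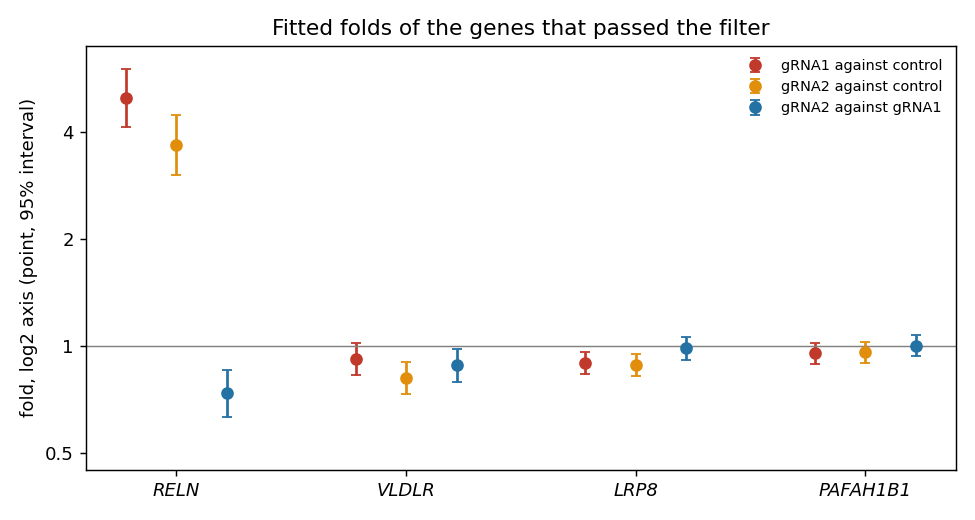
Fitted folds (log2 axis) of the 4 genes that passed the filter, as points with 95% intervals, for gRNA1 against control, gRNA2 against control and gRNA2 against gRNA1. RELN, chosen for its rise, stands at 4.99 and 3.68 against the control and at 0.738 between the guides, and the other 3 genes lie between 0.813 and 1.01.

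Per length, the main transcripts of the tested members kept the same order in all 9 libraries. That of PAFAH1B1 was highest, at 8.55 ± 0.476 TPM with gRNA1, 8.19 ± 0.417 with gRNA2 and 8.14 ± 0.486 in the control (SD, n = 3 each). The LRP8 transcript had 3.90 ± 0.0405, 3.91 ± 0.420 and 4.10 ± 0.105 TPM in the gRNA1, gRNA2 and control libraries, and VLDLR-202 had 3.20 ± 0.224, 3.04 ± 0.112 and 3.62 ± 0.266 TPM. RELN-201 was the lowest of the 4, at 0.820 ± 0.104 TPM with gRNA1, 0.647 ± 0.0571 with gRNA2 and 0.167 ± 0.0303 in the control. The receptors' main transcripts thus stayed above that of the ligand in every library, also where RELN was highest. The short DAB2 transcript, on few reads, had 0.725 ± 0.181, 0.782 ± 0.455 and 0.441 ± 0.152 TPM, which overlapped RELN-201 in both guide groups and lay above it in the control libraries.

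The target RNA was checked through the RefSeq record TRIDDENT, which lists TRIDENT as a synonym and matches LINC02861 (ENSG00000262185.2). It had 1.77, 2.09 and 1.87 CPM with gRNA1, 2.52, 2.29 and 2.52 CPM with gRNA2, and 2.62, 2.28 and 2.85 CPM in the control. The gRNA1 libraries lay below every control (0.745-fold, edgeR, adjusted p = 0.128) and the gRNA2 libraries overlapped them (0.945-fold, adjusted p = 0.810). Read totals ran from 16918432 to 26466536 per library. The epithelial markers EPCAM, CDH1, KRT7, KRT8, KRT18, KRT19 and EGFR were all abundant, summing to 3373 to 3518 CPM with gRNA1, 3326 to 3503 with gRNA2 and 3552 to 3764 in the control. The sums in both guide groups lay below those of the control. CDH1 (0.927-fold, edgeR, adjusted p = 0.0413) and EGFR (0.920-fold, adjusted p = 0.0254) were called lower with gRNA1, and KRT8 (0.875-fold, adjusted p = 0.0217) and KRT19 (0.817-fold, adjusted p = 0.00187) with gRNA2. Of these calls, that of KRT19 held without any 1 library, and those of CDH1, EGFR and KRT8 held in 1, 3 and 5 of the 9 fits without 1 library. KRT19 was also lower with gRNA2 than with gRNA1 (0.873-fold, edgeR, adjusted p = 0.0229), a call that held in 5 of the 9 fits. Of all tested genes, 3.58% were called lower with gRNA1 and 4.75% with gRNA2, shares not matched for level. The part of these markers in the results on the members was not tested.

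Summed markers of reelin-producing neurons and of endothelial cells were higher in the guide libraries, with 1 marker called in each list. Of all tested genes, 3.49% were called higher with gRNA1 and 3.69% with gRNA2. Most of the neuron sum was the single gene CALB2, and CDH5 had the largest rise among the endothelial markers, so these sums rest largely on single genes. Of 8 markers of reelin-producing neurons, 4 passed the filter, GAD2, SLC17A6 and LHX5 were at 0 reads, and their summed level was 30.8 to 32.9 CPM with gRNA1, 27.6 to 28.8 with gRNA2 and 25.4 to 25.7 in the control. CALB2, calretinin, which like CDH5 is named after its values were seen, had 24.2 CPM with gRNA1 and 19.9 CPM with gRNA2, against 18.7 CPM in the control (1.29-fold with gRNA1, edgeR, adjusted p = 0.00199; 1.07-fold with gRNA2, adjusted p = 0.389). CALB2 was also lower with gRNA2 than with gRNA1 (0.825-fold, edgeR, adjusted p = 0.0119), a call that held in 8 of the 9 fits without 1 library. The other tested neuron markers, TP73, GAD1 and RBFOX3, were not called with either guide. Of 6 endothelial markers, 4 passed the filter, LYVE1 and PROX1 were at 0 reads, and the sum was 8.07 to 9.31 CPM with gRNA1, 7.56 to 8.04 with gRNA2 and 5.65 to 6.47 in the control. CDH5, VE-cadherin, was higher with both guides, at 2.69 CPM with gRNA1 (3.19-fold, adjusted p = 0.000945) and 2.00 CPM with gRNA2 (2.39-fold, adjusted p = 0.00689), against 0.858 CPM in the control. PECAM1, KDR and TIE1 were not called with either guide. The CDH5 calls and that of CALB2 with gRNA1 held without any 1 library. The part of these markers in the RELN levels was not tested. Sums for fibroblast markers were 20.2 to 25.0 CPM with gRNA1, 22.7 to 25.7 CPM with gRNA2 and 20.8 to 22.4 CPM in the control, so those with gRNA2 lay above the control and those with gRNA1 overlapped it, with 0 of the 5 tested markers called. Sums for blood cell markers overlapped between groups, at 63.0 to 66.0 CPM with gRNA1, 65.8 to 76.1 CPM with gRNA2 and 64.8 to 70.0 CPM in the control.

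Of 50 genes that overlap the 1 Mb on either side of RELN, 28 were tested, with a median log2 fold of 0.06 (range -2.65 to 1.01) with gRNA1 and 0.05 (range -0.87 to 0.93) with gRNA2. The nearest tested genes by gene body were ORC5, a subunit of the origin recognition complex, whose start is 218.5 kb from that of RELN (0.970-fold with gRNA1, adjusted p = 0.749; 1.02-fold with gRNA2, adjusted p = 0.854), and on the other side PSMC2, a proteasome subunit (0.999-fold with gRNA1, adjusted p = 0.989; 0.932-fold with gRNA2, adjusted p = 0.138). With gRNA1, 1 gene was called higher and 0 lower, 3.57% of those tested against 7.08% of all tested genes. It was POLR2J3 (ENSG00000285437), at 1.16-fold (adjusted p = 0.00342) and, with gRNA2, at 1.13-fold (adjusted p = 0.0139). With gRNA2, RASA4 was called higher as well (1.24-fold, adjusted p = 0.0357), and these 2 calls were 7.14% of the neighbours tested, against 8.44% of all tested genes. Both belong to a cluster of near-identical copies, so their reads may be split between copies and the calls are uncertain. Another tested entry named POLR2J3, which overlaps the called one, was at 0.997-fold with gRNA1 (adjusted p = 0.985) and 1.00-fold with gRNA2 (adjusted p = 0.988). The calls with gRNA2 also ended without gRNA2 replicate 2 or control replicate 3 (adjusted p of up to 0.0834 for POLR2J3 and 0.126 for RASA4), and that of RASA4 without gRNA2 replicate 1, gRNA1 replicate 1 or control replicate 2 as well. Between the guides, 0 of the 28 were called.

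**Figure D3:**
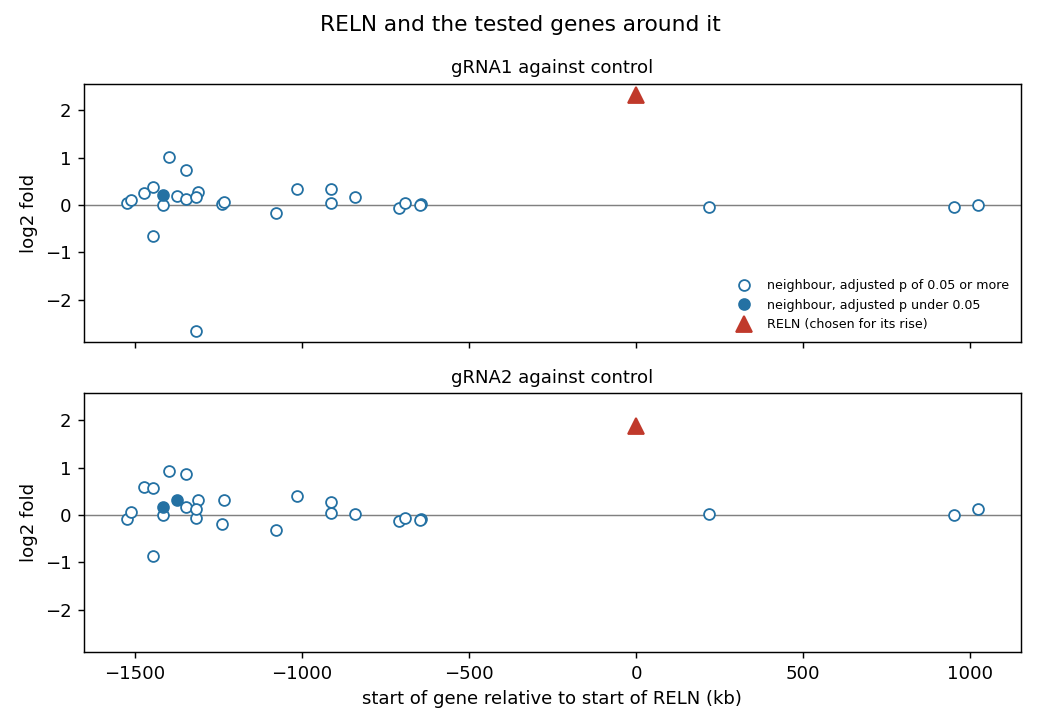
Log2 fold of RELN (triangle) and of the 28 tested genes around it (circles, filled at an adjusted p under 0.05), by the distance in kb of each gene's start from that of RELN, for gRNA1 (top) and gRNA2 (bottom) against the control. RELN stands at 2.32 and 1.88, and the filled circles are POLR2J3 with both guides and RASA4 with gRNA2.

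The 5 genes whose log2 CPM over the 9 libraries was most like that of RELN, out of 13254 compared, were PPP1R12B, HAGLR, AKAP6, DOCK11 and FZD5, with Pearson's r between 0.975 and 0.979. The libraries fall into 3 groups, so a likeness of this kind mainly repeats the order of the groups. AKAP6, an anchoring protein for protein kinase A, had 53.0 ± 1.5 CPM with gRNA1, 51.9 ± 2.41 with gRNA2 and 29.7 ± 0.908 in the control (SD, n = 3 each). DOCK11, a guanine nucleotide exchange factor for CDC42, had 22.8 ± 0.847, 18.1 ± 0.554 and 9.94 ± 0.879 CPM, and FZD5, a Wnt receptor, 51.4 ± 1.06, 48.3 ± 0.647 and 40.7 ± 1.27 CPM in the same order of groups. HAGLR had 5.87 ± 0.171, 4.12 ± 0.581 and 1.71 ± 0.155 CPM, and PPP1R12B, a myosin phosphatase subunit, 54.9 ± 0.809, 50.7 ± 0.978 and 43.3 ± 0.570 CPM. As a description over the same 9 libraries, r with RELN was -0.59 for VLDLR, -0.80 for LRP8 and -0.45 for PAFAH1B1.

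Around the members, 8 lists of pathway genes held 134 genes, of which 118 were tested. With gRNA1, 3 were higher and 11 lower, 11.9% of those tested against 7.08% of all tested genes. With gRNA2, 2 were higher and 20 lower, or 18.6% against 8.44%. Between the guides, 4 were higher with gRNA2 and 6 lower, or 8.47% against 6.22%. The shares over all tested genes were not matched for level, and 31.3% of the tested genes lay below the 2.48 CPM of RELN in the control. They therefore cannot show whether the lists differ from other genes of like level. The same holds for the shares of the single lists below. The median log2 fold over the lists was -0.06 with each guide, against -0.00034 with gRNA1 and 0.01 with gRNA2 over all genes. The count of 14 with gRNA1 became 7 or 6 without gRNA1 replicate 1 or 2, 8 without gRNA2 replicate 2, and 9, 6 or 8 without control replicate 1, 2 or 3. The count of 22 with gRNA2 became 9 without gRNA2 replicate 2, and 14, 12 or 10 without control replicate 1, 2 or 3, and that of 10 between the guides became 4 without gRNA2 replicate 2, gRNA1 replicate 1 or gRNA1 replicate 2. With an offset for transcript length, 6, 5 and 2 list genes were called in the 3 comparisons, and with protein-coding transcripts alone 8 with gRNA1 and 12 with gRNA2. The calls of BICD2 with gRNA1, of CFL1, BICD2 and UHRF1 with gRNA2 and of HDAC1 between the guides held in each of the 16 other settings, leaving out single libraries included. How many reads these genes share with near-identical copies was not measured.

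Receptors of the LDL receptor family were lower where they were called against the control. With gRNA1, 4 of 12 tested members fell and 0 rose, 33.3% against 7.08% of all tested genes. The list median was -0.16 on the log2 scale. With gRNA2, 3 fell and 0 rose, 25.0% against 8.44%, with a median of -0.06. These 3 include VLDLR and LRP8, described above. LRP6, a Wnt co-receptor, fell to 122.4 CPM with gRNA1 and 125.4 CPM with gRNA2, against 138.8 CPM in the control (0.882-fold, adjusted p = 0.00778; 0.903-fold, adjusted p = 0.0223). LRP12 fell to 0.834-fold with gRNA1 (adjusted p = 0.0111). LRP11, named after its values were seen, was at 0.880-fold with gRNA1 (adjusted p = 0.0214) and was higher with gRNA2 than with gRNA1 (1.13-fold, adjusted p = 0.0282). Of the calls of LRP6, LRP12 and LRP11, that of LRP6 with gRNA1 held without any 1 library. The others ended in at least 1 such fit, with an adjusted p of up to 0.148.

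Other ligands of the reelin receptors differed between the guides. Of the 4 tested, 2 fell with gRNA1 and 0 passed with gRNA2, and 2 were higher with gRNA2 than with gRNA1. THBS1, thrombospondin 1, had 64.1 CPM with gRNA1 and 77.7 CPM with gRNA2, against 78.1 CPM in the control (0.821-fold with gRNA1, adjusted p = 0.000763; gRNA2 over gRNA1 1.21-fold, adjusted p = 0.00071). Both THBS1 calls held without any 1 library. APOE, at 2.62, 2.68 and 2.59 CPM with gRNA1, with gRNA2 and in the control, and CLU, at 22.6, 20.8 and 21.2 CPM, were not called in any comparison.

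Among membrane proteins that bind reelin or act beside its receptors, 0 of 10 passed with gRNA1, against 7.08% of all tested genes. With gRNA2, 1 rose and 2 fell, 30.0% against 8.44%. EFNB2, the ligand ephrin-B2, rose to 34.5 CPM with gRNA2, against 27.9 CPM in the control (1.23-fold, adjusted p = 0.00637), a call that held without any 1 library. EPHB2, an ephrin receptor, was at 0.879-fold (adjusted p = 0.0357) and APP, the amyloid precursor protein, at 0.927-fold (adjusted p = 0.0323) with gRNA2, and both calls ended in most of those fits (adjusted p up to 0.149). EPHB3 was at 0.818-fold with gRNA2 (adjusted p = 0.0665).

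Of 27 tested genes of the relay downstream of DAB1, 2 fell and 0 rose with each guide, 7.41% against 7.08% of all tested genes with gRNA1 and 8.44% with gRNA2. PIK3CB, a catalytic subunit of PI3 kinase, fell to 135.7 CPM with gRNA1 and 141.6 CPM with gRNA2, against 157.9 CPM in the control (0.859-fold, adjusted p = 0.00297; 0.896-fold, adjusted p = 0.0181). CFL1, the actin-severing protein cofilin, fell to 277.4 CPM with gRNA1 and 257.7 CPM with gRNA2, against 309.8 CPM in the control (0.896-fold, adjusted p = 0.0370; 0.832-fold, adjusted p = 0.00183). The calls of PIK3CB with gRNA1 and of CFL1 with gRNA2 held without any 1 library, and the other call of each did not (adjusted p up to 0.159). FYN, a Src-family kinase that phosphorylates DAB1, was at 0.845-fold with gRNA1 (adjusted p = 0.104) and 0.887-fold with gRNA2 (adjusted p = 0.234), and RAPGEF1, the exchange factor that CRK proteins bring in, at 0.903-fold (0.0975) and 0.911-fold (0.118).

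LIS1 works with cytoplasmic dynein, and 16 genes of that list were tested. With gRNA1, 2 fell and 0 rose, 12.5% against 7.08% of all tested genes. With gRNA2, 3 fell and 0 rose, 18.8% against 8.44%. BICD2, a cargo adaptor of dynein, fell to 78.5 CPM with gRNA1 and 76.9 CPM with gRNA2, against 90.8 CPM in the control (0.865-fold, adjusted p = 0.00364; 0.848-fold, adjusted p = 0.0015), and both calls held without any 1 library. DYNC1H1, the dynein heavy chain, fell to 0.901-fold with gRNA2 (adjusted p = 0.00283), a call that held in the same way. DYNLL1, a dynein light chain, was at 0.868-fold with gRNA2 (adjusted p = 0.0146) and CLIP1, a microtubule plus-end protein, at 0.909-fold with gRNA1 (adjusted p = 0.0304), and these calls did not hold in all such fits (adjusted p up to 0.149). DYNC1H1 and DYNLL1 were also called lower with gRNA2 than with gRNA1 (0.936-fold, adjusted p = 0.0428; 0.870-fold, adjusted p = 0.0178), calls that ended in 7 and 3 of 9 such fits.

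Of 20 tested endocytic adaptors and trafficking genes of LDL receptors, 6 fell with gRNA2 and 0 rose, 30.0% against 8.44% of all tested genes. The list median was -0.10 on the log2 scale. SNX17, which recycles receptors of this family from endosomes, fell to 43.0 CPM with gRNA2, against 51.5 CPM in the control (0.835-fold, adjusted p = 0.00494). AP2B1 and AP2M1, subunits of the clathrin adaptor AP-2, were at 0.891-fold (adjusted p = 0.00396) and 0.866-fold (adjusted p = 0.00932). CLTC and CLTA, the clathrin chains, and DNM2, dynamin 2, made up the 6 and are named after their values were seen. The calls of SNX17 and AP2B1 held without any 1 library, and that of AP2M1 ended without gRNA2 replicate 2 (adjusted p = 0.0603). With gRNA1, 0 fell and 1 rose, 5.0% against 7.08% of all tested genes. It was NUMB, an endocytic adaptor, at 1.12-fold (adjusted p = 0.0116). This call ended without gRNA1 replicate 2 or control replicate 2 (adjusted p up to 0.0689). NUMB was also lower with gRNA2 than with gRNA1 (0.907-fold, adjusted p = 0.0295), a call that ended in 8 of 9 such fits.

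Of 15 tested genes for the turnover of reelin, its receptors and DAB1, 1 rose and 1 fell with gRNA1, 13.3% against 7.08% of all tested genes. With gRNA2, 1 rose and 0 fell, 6.67% against 8.44%. ADAMTS4, a protease that cleaves reelin, had 7.90 CPM with gRNA1 and 7.74 CPM with gRNA2, against 5.99 CPM in the control (1.32-fold, adjusted p = 0.0333; 1.29-fold, adjusted p = 0.0435), but these calls ended in 6 and 7 of the 9 fits without 1 library and with a block for replicate number (adjusted p = 0.0502 and 0.0617). CBL, a ubiquitin ligase, was at 0.898-fold with gRNA1 (adjusted p = 0.00894; up to 0.0676 without 1 library). MYLIP, a ligase that degrades VLDLR and LRP8, was at 0.877-fold with gRNA2 (adjusted p = 0.0573), and CUL5, part of the ligase for DAB1, at 0.925-fold with each guide (adjusted p = 0.276 with gRNA1 and 0.260 with gRNA2).

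The RELN promoter is a known site of CpG methylation, and 14 genes of the DNA methylation machinery were tested. With gRNA2, 4 fell and 0 rose, 28.6% against 8.44% of all tested genes. Of these, 3 were also lower than with gRNA1, 21.4% of the list against 6.22% of all tested genes. With gRNA1, 0 fell and 1 rose, 7.14% against 7.08%. The part of these genes in the RELN levels was not tested. HDAC1, a histone deacetylase found with methyl-CpG binding proteins, had 59.0 CPM with gRNA2 and 75.4 CPM with gRNA1, against 74.5 CPM in the control (0.793-fold with gRNA2, adjusted p = 0.000249; gRNA2 over gRNA1 0.784-fold, adjusted p = 0.000174). UHRF1, which brings the maintenance methyltransferase to replicated DNA, had 43.0 CPM with gRNA2 and 52.4 CPM with gRNA1, against 54.9 CPM in the control (0.785-fold with gRNA2, adjusted p = 0.000748; gRNA2 over gRNA1 0.822-fold, adjusted p = 0.00331). DNMT1, that methyltransferase, was at 0.872-fold with gRNA2 (adjusted p = 0.00906) and 0.876-fold between the guides (adjusted p = 0.0126), and both calls ended without gRNA2 replicate 2 (adjusted p = 0.0526 and 0.0645). The HDAC1 and UHRF1 calls held without any 1 library, while those of MBD3, named after its values were seen, with gRNA2 (0.802-fold, adjusted p = 0.0493) and of TET3 with gRNA1 (1.14-fold, adjusted p = 0.0465), the single call with that guide, ended in 8 and 7 of the 9 fits.

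**Figure D4:**
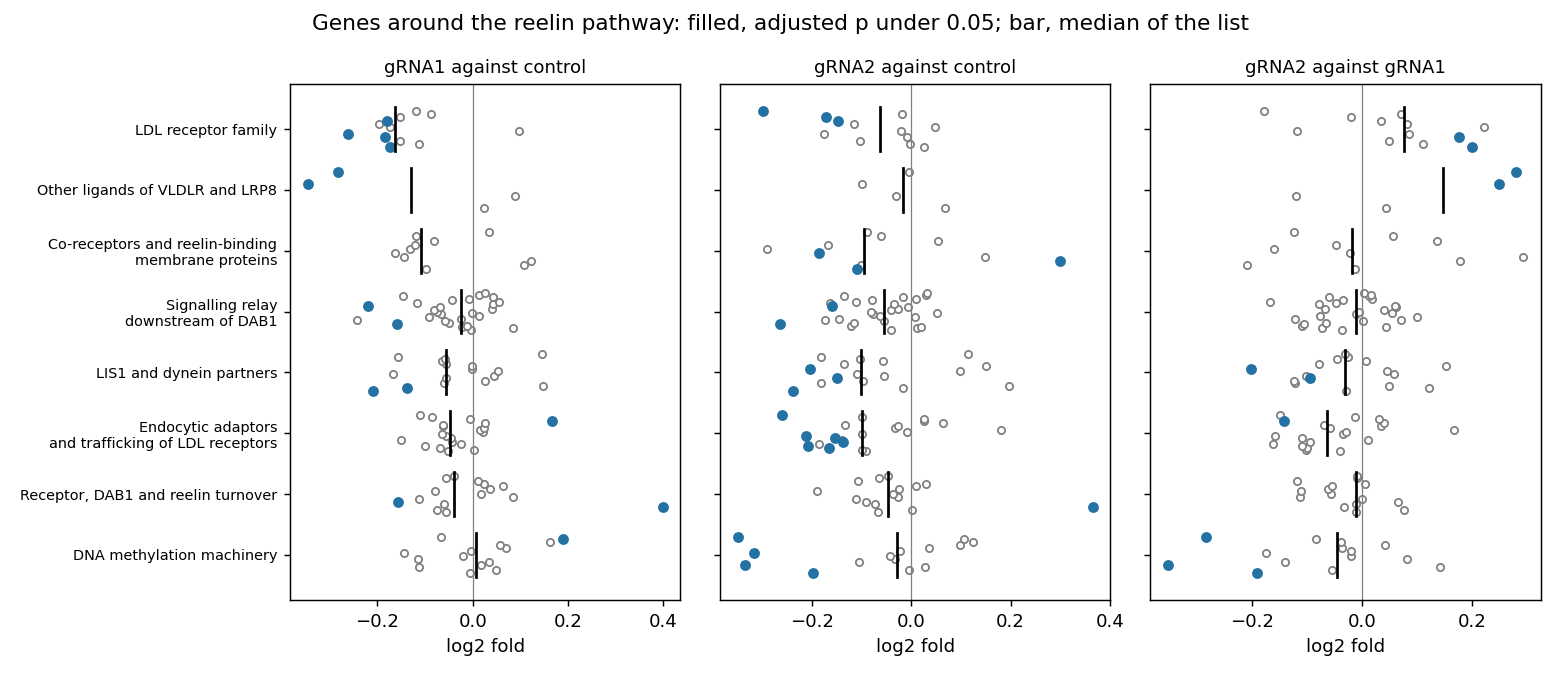
Log2 folds (horizontal axis) of the 118 tested genes of the 8 lists, 1 circle a gene and a row a list, for gRNA1 against control, gRNA2 against control and gRNA2 against gRNA1, with filled circles at an adjusted p under 0.05 and a black bar at each list's median. Filled circles against the control lie mostly left of 0, 11 of 14 with gRNA1 and 20 of 22 with gRNA2.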

How the data were processed

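Per the submitters' processing notes, the authors used Salmon 1.4.0 and hg38. The deposited tables give, per the file headers, an estimated count of reads per transcript and TPM, beside lengths. Estimated counts were summed over genes by GENCODE 29 (95.7% of 211939 transcripts matched, and the 1.26% to 1.33% of reads on the others were left out) and rounded, and 99.1% of genes had a current symbol. TPM did not enter the main fit, but it weighted the transcript lengths in the fit with the length offset.

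In edgeR 4.0.16 (R 4.3.3), filterByExpr, TMM scaling and a quasi-likelihood F test, two-sided, were run in 1 fit of 9 libraries, with Benjamini-Hochberg adjustment over all 19658 genes and a threshold of 0.05. CPM use TMM library sizes, and values with ± are mean and SD. The biological coefficient of variation was 0.0510. Recovery was tested on simulated data in genes that averaged 2 CPM or more. Changes of 1.25-, 1.5- and 2-fold were recovered in 56.7%, 88.1% and 98.5% of genes for gRNA1 against control. The shares were 49.3%, 85.1% and 95.5% for gRNA2 against control, and 56.7%, 82.1% and 98.5% between the guides. In these simulations 6, 7 and 18 unchanged genes were called, in the same order of comparisons. Each gene was given the average spread of genes at its level, so genes with a larger spread are not covered. Sequences came from RefSeq tables (promoters) and GENCODE 29 transcripts, and sharing of 31-mers with other genes was measured for the 6 members only.

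Genes named from a list are up to 4 with the lowest adjusted p in any comparison, and others are said to be named after their values were seen. The members and lists were chosen with earlier results of these data known. The alternatives were DESeq2 1.42.0, RLE scaling, no filter, a replicate block, fits of 2 groups, protein-coding transcripts alone, a length offset and leaving out each library. Libraries of a group differed by more than sampling noise. NDE1 was not analysed here, and the values of some list genes are not reported here.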

Additional observations from a re-analysis of the deposited data

Results flagged for a closer look

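RELN differed between the guides in a direct test of the main fit. The log2 fold of gRNA2 over gRNA1 was -0.44 (edgeR, adjusted p = 0.0203), with all 3 gRNA2 libraries below all 3 gRNA1 libraries. The call ended in 4 of the 9 fits without 1 library, with protein-coding transcripts alone and with the length offset. The cause of the difference was not tested.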

How the results depend on the processing

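With DESeq2, RLE scaling, no filter or a replicate block, the members kept their direction and their side of the threshold in all 3 comparisons. Replicate numbers did not pair the libraries (correlation of deviations between -0.05 and 0.07), and with the replicate block 1264, 1582 and 1144 genes were called with gRNA1, with gRNA2 and between the guides, and RELN between the guides was at log2 -0.43 (adjusted p = 0.0274). With protein-coding transcripts alone, 629, 856 and 779 genes were called, and 8 and 12 list genes with gRNA1 and gRNA2. With the length offset, 538, 434 and 446 genes and 6, 5 and 2 list genes were called in the 3 comparisons. RELN with gRNA1 was at log2 2.07 with that offset. Calls that ended were VLDLR with gRNA2 (log2 -0.26 with protein-coding transcripts, -0.39 with the offset), LRP8 with gRNA2 (-0.13, -0.19 and, with 2 groups, -0.17) and RELN between the guides (-0.43 and -0.35). Leaving out 1 library gave 654 to 1701, 671 to 1817 and 575 to 1215 genes, and 6 to 15, 9 to 24 and 4 to 11 list genes. RELN then lay between log2 2.17 and 2.48 with gRNA1, 1.73 and 2.05 with gRNA2, and -0.49 and -0.39 between the guides, VLDLR between -0.35 and -0.26 and LRP8 between -0.20 and -0.12 with gRNA2. Between the guides, LRP8 ran from -0.054 to 0.024 and PAFAH1B1 from -0.026 to 0.048 (-0.012 with protein-coding transcripts), changing sign around no difference. The cause of these shifts was not tested, apart from fewer libraries or fewer genes. DAB1 and DAB2 have too few reads for any of these fits, and at this depth small differences of low genes cannot be resolved. Of list calls, 5 of 14 with gRNA1, 8 of 20 with gRNA2 beside the receptors and 3 of 10 between the guides held without any 1 library.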
